A study of Mus musculus with 59 samples.

Results

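Genes that mark cumulus and granulosa cells were examined in cloned mouse embryos. Cloning was by somatic cell nuclear transfer (SCNT), where an oocyte loses its own nucleus and receives that of a body cell. The members are 43 named genes of 24421 in the expression table, chosen with earlier results of these data known. They were chosen as genes of the nuclear source, since the labels name the cumulus cell as the donor cell of SCNT. All 43 were found by symbol. One group is late 2-cell embryos given trichostatin A (TSA), which blocks histone deacetylases, and collected 33 to 34 h after activation. The other 3 had no TSA, carry the treatment label WT and were collected as 1-cell embryos (13 to 14 h), early 2-cell embryos (20 to 21 h) and late 2-cell embryos (33 to 34 h). Each group has 5 RNA libraries, all carry the strain label BDF1, and the protocols describe oocytes from superovulated C57BL/6n females aged 5 to 7 weeks. The sources used here give neither the dose nor the duration of TSA. A gene has a single value for each group, and the differences below therefore carry no error, replicate check or p-value. Levels are in FPKM, a fragment count corrected for transcript length and library size, and differences are on the log2(FPKM + 1) scale, where 1 is 2-fold.

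Granulosa cells line the ovarian follicle, and cumulus cells are those that surround the oocyte. They respond to follicle-stimulating and luteinizing hormone, make estradiol and progesterone, and feed the oocyte through gap junctions. Before ovulation, EGF-like ligands start cumulus expansion, in which the cells build a matrix rich in hyaluronan. In embryos cloned from such cells, transcripts of the donor type are used as a readout of somatic memory, and TSA is widely used to raise the success of cloning. Donor cells, oocytes and fertilized embryos have no value among those used here, so a transcript read from the donor nucleus, one carried in with it and one stored by the oocyte cannot be told apart. In bulk RNA, fewer cells with a transcript and less of it per cell cannot be told apart.

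The share of members at 1 FPKM or more was below that of all genes in every column, and by less at the late 2-cell stage. With TSA 19 of 43 (44.2%) did and without it 19 (44.2%), against 48.8% and 50.0% of all genes. At the 1-cell and early 2-cell stages 12 of 43 (27.9%) did in each, against 38.6% and 38.8% of all genes. Of the 43, 20 stayed under 1 FPKM in all 4 columns. These include most of the genes that define the granulosa lineage. Of 8 such markers, 5 were under 1 FPKM everywhere: Foxl2, a transcription factor that maintains ovarian identity (at most 0.25 FPKM), Nr5a1, a master regulator of steroid synthesis (at most 0.074), Inha, the inhibin alpha subunit (at most 0.16), Amh, anti-Müllerian hormone (at most 0.30), and Lhcgr, the receptor of luteinizing hormone (at most 0.35). Only Cyp19a1, Amhr2 and Fshr of the 8 reached 1 FPKM in any column, so most defining markers of the label stayed below that level. Whether those are absent cannot be told without a detection limit. The summed level of all members was 184.8 FPKM with TSA and 255.6 FPKM untreated at the late 2-cell stage, after 193.3 FPKM at the 1-cell and 116.8 FPKM at the early 2-cell stage, and Serpine2, Anxa2 and Gja1, which many other cell types also express, held most of it in each column.

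**Figure D1:**
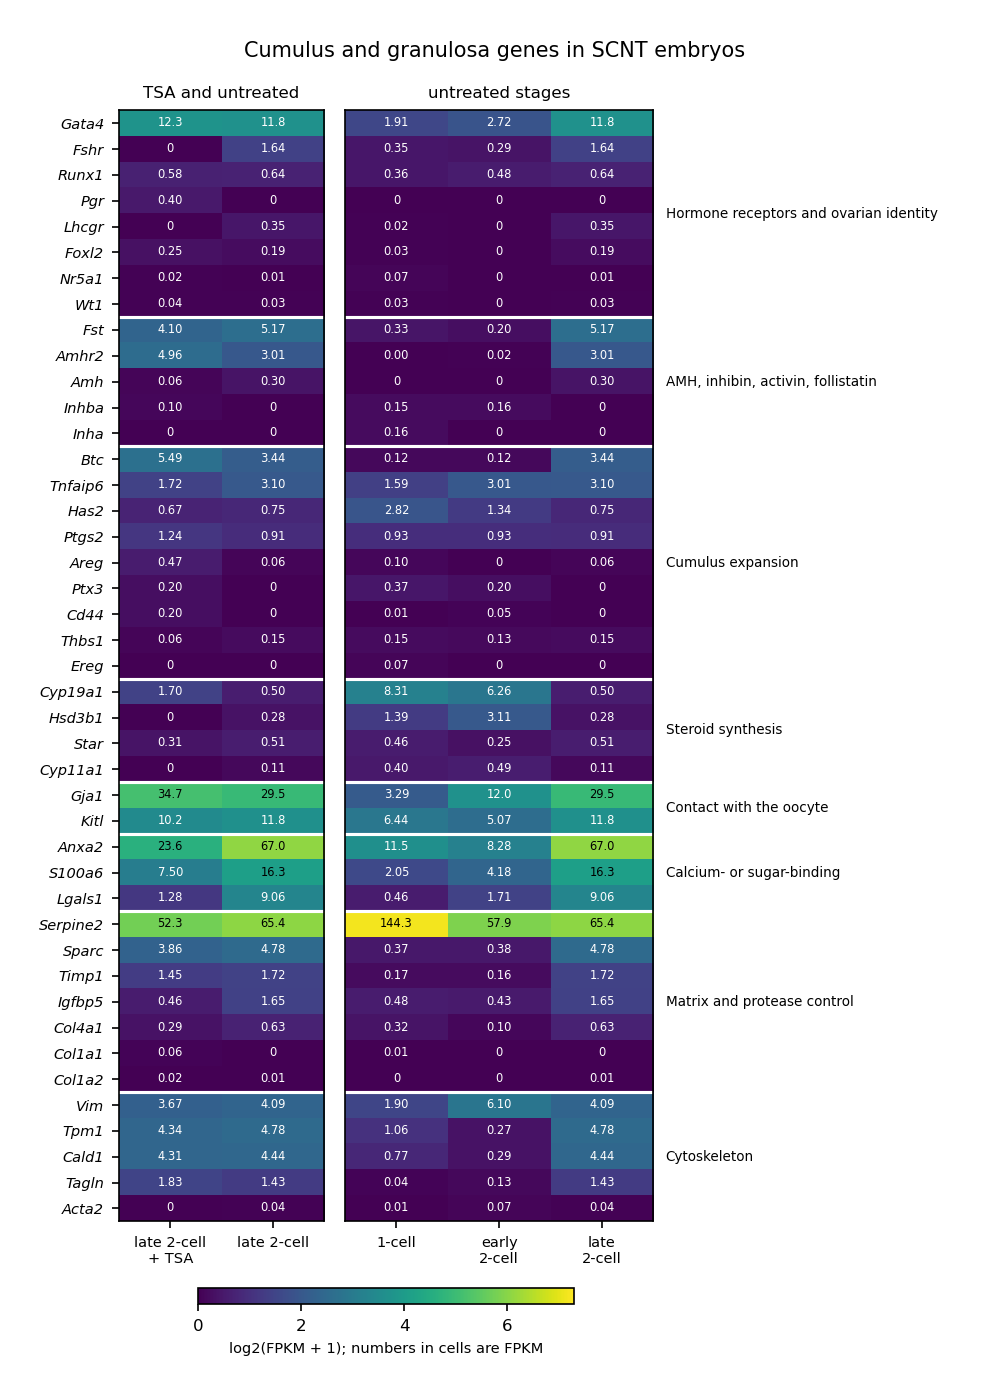
Level of each of the 43 members (rows, grouped by role) in TSA-treated and untreated late 2-cell embryos (left block) and in the 3 untreated stages (right block). Colour is log2(FPKM + 1), the number in each cell is FPKM, and each cell is the authors' value for a group, with no error. Serpine2 at the 1-cell stage (144.3 FPKM) is the highest value, and most rows of hormone receptors, inhibins and cumulus expansion are near 0.

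TSA-treated late 2-cell embryos were compared with untreated ones to describe which of these genes differ between embryos given TSA and those not given it. Lgals1, Anxa2, Fshr and S100a6 were at least 2-fold lower with TSA, and 0 members were at least 2-fold higher. This is 4 of the 21 members with at least 1 FPKM in either column (19.0%), against 4.08% of 12756 genes kept the same way, and 4 of all 43 (9.3%), against 2.13% of all genes. Since the members were chosen with earlier results of these data known, a share above that of all genes, here and below, is no evidence. A 2-fold higher value was seen in 2.51% of the 12756 genes and 1.31% of all. A gene under 1 FPKM in both columns cannot reach a difference of 1, so the filter changes the shares but not which members are counted. The median difference of the 21 members was -0.15, beside -0.08 for all 12756 genes. After median-ratio scaling between columns the median of all genes lay 0.13 higher, with 367 genes higher and 233 lower in place of 320 and 520, and the median of the members was -0.051.

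Anxa2 is a calcium-dependent protein that binds membranes and actin. Its level was 23.6 FPKM with TSA and 67.0 FPKM untreated, a difference of -1.47. The untreated 1-cell stage had 11.5 FPKM and the early 2-cell stage 8.28 FPKM, so the value with TSA lay between the earlier stages and untreated late 2-cell embryos. S100a6 encodes calcyclin, a small calcium sensor that binds annexins. It was at 7.50 FPKM with TSA and 16.3 FPKM untreated, a difference of -1.02, and at 2.05 and 4.18 FPKM in 1-cell and early 2-cell embryos. Lgals1, the sugar-binding protein galectin-1, showed the most negative difference of the members, -2.14. It was at 1.28 FPKM with TSA and 9.06 FPKM untreated, and at 0.46 and 1.71 FPKM in 1-cell and early 2-cell embryos. With TSA its level was below that of early 2-cell embryos. Fshr, the receptor of follicle-stimulating hormone and the most granulosa-specific of the 4, was listed at 0 with TSA and at 1.64 FPKM untreated. The 1-cell stage had 0.35 FPKM and the early 2-cell stage 0.29 FPKM, so all its values are low. Whether a 0 or a low value in this table is a failed estimate was not tested, for Fshr or for the other low members. Gapdh, which all cells use, was itself listed at only 0.028 to 0.91 FPKM. The differences of Lgals1 and Anxa2 stayed beyond 2-fold with a pseudocount of 0.1 or 5 and after either scaling. That of S100a6 was -0.86 after median-ratio scaling and -0.77 with a pseudocount of 5, and that of Fshr -0.95 after quantile normalization and -0.41 with a pseudocount of 5. In RefSeq (GRCm38.p6), Lgals1 (chromosome 15, 78926725 to 78930465) overlaps the predicted gene Gm30368 and Anxa2 (chromosome 9, 69453683 to 69491792) overlaps Mir3109, and whether the authors' counting separated them is not given.

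The bases before the transcript starts of the lower genes are shown because these genes share a direction with TSA, together with those of Amhr2, a granulosa receptor that was not lower. They are the 250 bases upstream of a RefSeq transcript start on GRCm38.p6, written 5′ to 3′ on the gene's strand. The Amhr2 window lies inside the gene's RefSeq span, which begins at 102445002, so its positions count from a start within the gene. The RefSeq table used here gives no such window for Lgals1. Capitals mark matches on either strand to the GC box GGGCGG, the TATA box TATAAA, the cyclic AMP element TGACGTCA, the NR5A site CAAGGTCA, the GATA site AGATAA, the E-box CACGTG or the AP-1 site TGANTCA.
Anxa2 (chr9:69453433-69453682, + strand): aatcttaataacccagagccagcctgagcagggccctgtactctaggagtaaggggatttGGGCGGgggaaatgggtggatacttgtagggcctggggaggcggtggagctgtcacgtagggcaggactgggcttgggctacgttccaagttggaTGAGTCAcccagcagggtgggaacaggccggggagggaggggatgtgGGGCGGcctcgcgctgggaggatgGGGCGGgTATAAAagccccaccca
S100a6 (chr3:90612644-90612893, + strand): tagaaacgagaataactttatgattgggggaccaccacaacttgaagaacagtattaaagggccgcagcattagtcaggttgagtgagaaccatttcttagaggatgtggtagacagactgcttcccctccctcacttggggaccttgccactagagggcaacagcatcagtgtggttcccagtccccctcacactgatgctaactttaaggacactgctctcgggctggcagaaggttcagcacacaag
Fshr (chr17:89200676-89200925, - strand): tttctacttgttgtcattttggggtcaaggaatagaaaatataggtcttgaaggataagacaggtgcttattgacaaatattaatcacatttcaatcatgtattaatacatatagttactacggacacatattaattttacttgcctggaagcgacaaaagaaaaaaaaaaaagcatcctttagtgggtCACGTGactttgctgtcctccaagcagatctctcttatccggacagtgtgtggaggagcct
Amhr2 (chr15:102445117-102445366, + strand): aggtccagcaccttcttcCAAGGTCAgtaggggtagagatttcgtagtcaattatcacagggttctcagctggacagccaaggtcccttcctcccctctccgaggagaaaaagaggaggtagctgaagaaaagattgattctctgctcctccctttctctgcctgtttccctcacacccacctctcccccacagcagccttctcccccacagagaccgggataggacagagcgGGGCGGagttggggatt

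These windows shared no match among the 3 genes lower with TSA. Anxa2 had 3 GC boxes, an AP-1 site and a TATA box 17 bases before the start, S100a6 had 0 matches, and Fshr had an E-box 61 bases before the start. Amhr2 had an NR5A site 232 bases and a GC box 17 bases before its start within the gene. Among 32851 such windows of all genes, 32.7% held a GC box, 12.4% a TATA box, 6.02% the E-box, 6.75% the AP-1 site and 1.33% the NR5A site. GC content was 62.4% for Anxa2, 50.0% for S100a6, 36.8% for Fshr and 55.2% for Amhr2, beside a median of 52.4% over all windows. Matches of different motifs did not overlap in these 4 windows. A match is a run of letters and does not show that a factor binds there. Windows were matched for 31 of 43 members, which is 72.1% and too few to compare base composition over the whole set.

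**Figure D2:**
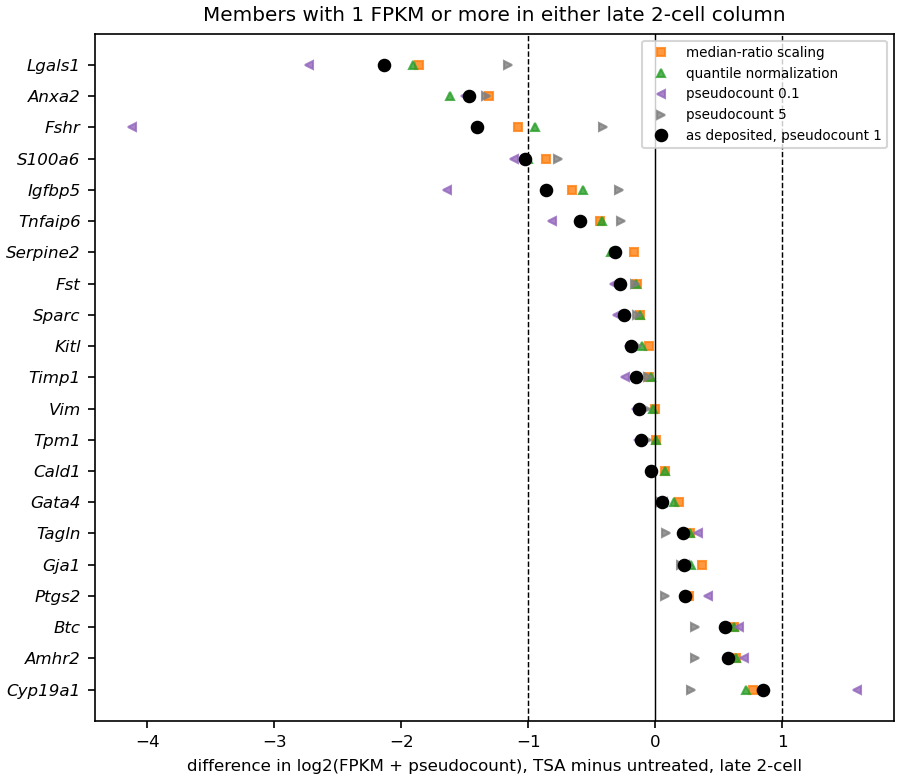
Difference between TSA-treated and untreated late 2-cell embryos (x axis, log2 scale) for the 21 members with at least 1 FPKM in either column. Black circles are the values as deposited with a pseudocount of 1, other symbols the same difference under another scaling or pseudocount, and dashed lines mark 2-fold. Lgals1 and Anxa2 lie left of the lower line under every setting drawn, and most members lie between -0.5 and 0.5.

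Other S100 and contractile transcripts were read beside the members. S100a10, whose protein forms a complex with annexin A2, was at 18.3 FPKM with TSA and 44.4 FPKM untreated (-1.24), and S100a11, whose protein binds annexin A1, was at 4.71 against 19.5 FPKM (-1.85). Both belong to a list of 32 mesenchymal matrix and contractile genes, and 17 genes of that list had at least 1 FPKM in either column. Over all 12756 kept genes 4.08% were at least 2-fold lower and 2.51% at least 2-fold higher. Of these 17, 3 were at least 2-fold lower, the third being Tpm2, a tropomyosin, at 2.07 with TSA against 6.61 FPKM (-1.31). Cyr61, a matrix protein, was at least 2-fold higher, at 3.58 FPKM with TSA against 1.14 FPKM untreated (1.10). The list's median was -0.45, and its most abundant genes, Myl6, a myosin light chain, and Cd63, a tetraspanin, were at 419.1 against 529.2 FPKM and 295.5 against 354.3 FPKM. The whole S100, annexin and galectin families were examined after these values had been seen. Their counts are therefore no evidence about the families, beside the 4.08% of all kept genes. Of 8 S100 genes with at least 1 FPKM in either column, 4 were 2-fold lower with TSA, namely S100a6, S100a10, S100a11 and S100a3 (3.04 against 7.68 FPKM, -1.10). After median-ratio scaling S100a3 (-0.92) and S100a6 (-0.86) lay within 2-fold, while S100a10 (-1.08) and S100a11 (-1.65) stayed beyond it. S100a1, which overlaps S100a13, was higher at 6.12 FPKM with TSA and 3.31 FPKM untreated (0.72). Among 7 annexins Anxa2 alone was 2-fold lower, with Anxa5 at 14.6 against 25.3 FPKM (-0.76) and Anxa3 higher at 3.14 against 1.28 FPKM (0.86). Of 7 galectins Lgals1 was 2-fold lower with a pseudocount of 1. Lgals4 was at 0.16 FPKM with TSA and 1.02 FPKM untreated, a difference of -0.80 that was -2.12 with a pseudocount of 0.1. The most abundant galectin, Lgals3, was at 76.7 against 107.5 FPKM (-0.48).

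**Figure D3:**
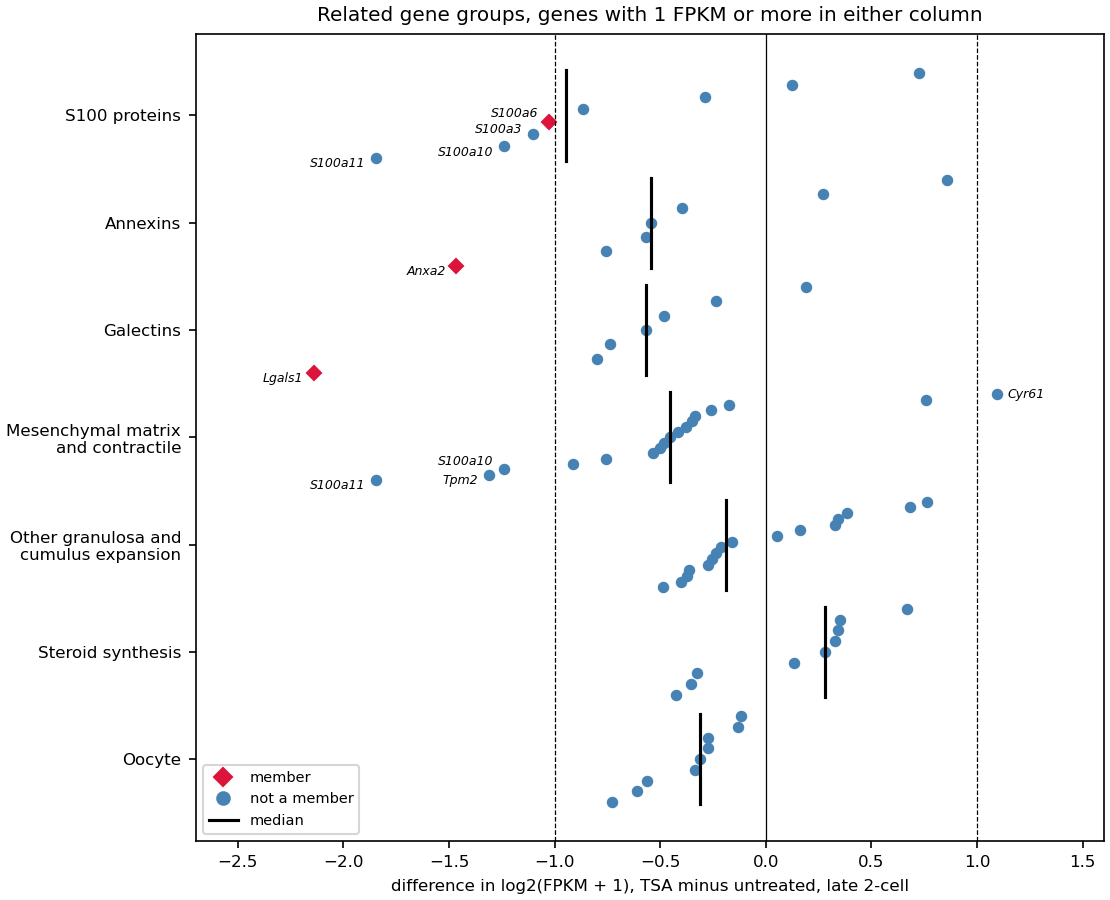
Difference between TSA-treated and untreated late 2-cell embryos (x axis, log2(FPKM + 1)) for genes of related groups with at least 1 FPKM in either column, 1 point per gene. Diamonds are members, circles other genes, vertical bars the group medians and dashed lines mark 2-fold. S100a10 and S100a11 stand in both the S100 and the mesenchymal group. Anxa5 and Lgals3 also stand in the mesenchymal group, and Hsd17b1 in both the granulosa and the steroid synthesis group. The leftmost points are Lgals1 (-2.14), S100a11 (-1.85) and Anxa2 (-1.47).

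Receptors and regulators of the ovary other than Fshr were mostly low. Amhr2, the receptor of anti-Müllerian hormone, was at 4.96 FPKM with TSA and 3.01 FPKM untreated, a difference of 0.57, and at 0.0046 and 0.020 FPKM in 1-cell and early 2-cell embryos. Both late 2-cell values were thus above the earlier ones, while its ligand Amh was at 0.063 with TSA against 0.30 FPKM untreated. Gata4, a transcription factor of granulosa cells that also acts in early endoderm and heart, was at 12.3 against 11.8 FPKM (0.06), with 1.91 FPKM at the 1-cell and 2.72 FPKM at the early 2-cell stage. Runx1, at 0.58 against 0.64 FPKM, and Wt1, at 0.036 against 0.027 FPKM, were low in both. Pgr, the progesterone receptor, was listed at 0.40 FPKM with TSA and at 0 in the 3 untreated columns. Lhcgr lies 193 kb from Fshr on chromosome 17 and, like it, was listed at 0 with TSA, against 0.35 FPKM untreated. Pgr and Lhcgr were under 1 FPKM in both columns, where a difference of 1 cannot be reached, and with a pseudocount of 0.1 their differences were 2.32 and -2.18.

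Fst encodes follistatin, which binds and blocks activin. It was at 4.10 FPKM with TSA and 5.17 FPKM untreated (-0.27), against 0.33 and 0.20 FPKM in 1-cell and early 2-cell embryos. Inhba, an activin subunit, was at 0.10 FPKM with TSA and listed at 0 untreated, and Inha was listed at 0 in both at the late 2-cell stage. Inhbb, another activin subunit, named after its values were seen, was at 0.69 FPKM with TSA and 0.97 FPKM untreated.

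Genes of cumulus expansion were low, with Btc and Tnfaip6 the highest of the 9 at the late 2-cell stage. Btc, which encodes the EGF-like ligand betacellulin, was at 5.49 FPKM with TSA and 3.44 FPKM untreated (0.55), and at 0.12 FPKM in each earlier stage. Its relatives Areg and Ereg, whose genes lie on chromosome 5 with Btc (Areg 208.829 kb from Btc and Ereg 45.95 kb from Areg), stayed under 1 FPKM, Areg at 0.47 FPKM with TSA against 0.062 untreated and Ereg listed at 0 in both. Tnfaip6, which links hyaluronan to other matrix proteins, was at 1.72 against 3.10 FPKM (-0.59), and at 1.58 and 3.01 FPKM in 1-cell and early 2-cell embryos. Has2, the enzyme that makes hyaluronan, was highest before the late 2-cell stage, with 0.67 against 0.75 FPKM there and 2.82 and 1.34 FPKM in the 2 earlier groups. Ptgs2, a prostaglandin synthase, was at 1.24 against 0.91 FPKM (0.24), with 0.93 FPKM at each earlier stage. Has2 overlaps its antisense gene Has2os in RefSeq. The matrix organizer Ptx3, the hyaluronan receptor Cd44 and Thbs1, thrombospondin 1, were at most 0.37 FPKM in any column.

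Cyp19a1, the aromatase that makes estrogen, had the most positive difference with TSA among the members. It was at 1.703 FPKM with TSA and 0.50 FPKM untreated, a difference of 0.85, which is 3.42-fold in plain FPKM and 1.59 on the log2 scale with a pseudocount of 0.1. Untreated 1-cell embryos had 8.31 FPKM and early 2-cell embryos 6.26 FPKM, so the value with TSA was below both. Hsd3b1, which converts pregnenolone to progesterone and has near-identical relatives, was listed at 0 with TSA and at 0.28 FPKM untreated, and at 1.39 and 3.11 FPKM in 1-cell and early 2-cell embryos. Star, which carries cholesterol into mitochondria, was at 0.31 against 0.51 FPKM and Cyp11a1, the enzyme that starts steroid synthesis there, was listed at 0 against 0.11 FPKM.

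Gja1 and Kitl, placed in the figures under the heading of contact with the oocyte, were well above 1 FPKM in every column. Both were close between the late 2-cell groups. Gja1, connexin 43, the gap junction protein that joins granulosa cells to one another, was at 34.7 FPKM with TSA and 29.5 FPKM untreated (0.22). Kitl, the ligand of the receptor KIT, was at 10.2 against 11.8 FPKM (-0.19), with 6.44 and 5.07 FPKM in 1-cell and early 2-cell embryos, and Kit itself, named after its values were seen, at 19.5 against 21.3 FPKM. Serpine2, an inhibitor of serine proteases, was at 52.3 FPKM with TSA and 65.4 FPKM untreated (-0.32). Igfbp5, an IGF-binding protein, was at 0.46 against 1.65 FPKM, a difference of -0.86 that lay just inside the 2-fold line, as that of S100a6 lay just beyond it. In plain FPKM Igfbp5 was 3.58-fold lower, and its difference was -1.64 with a pseudocount of 0.1 and -0.28 with 5. Its earlier values were 0.48 FPKM (1-cell) and 0.43 FPKM (early 2-cell). Sparc, a collagen-binding matrix protein, was at 3.86 against 4.78 FPKM (-0.25), with 0.37 and 0.38 FPKM in 1-cell and early 2-cell embryos. Timp1, an inhibitor of metalloproteinases whose gene overlaps Syn1, was at 1.45 against 1.72 FPKM (-0.15), with 0.17 and 0.16 FPKM earlier. The collagen genes were low, with Col1a1 and Col1a2 at most 0.058 FPKM and Col4a1 at most 0.63 FPKM in any column.

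Cytoskeletal members were nearly equal with and without TSA. Vim, vimentin, was at 3.67 FPKM with TSA and 4.09 FPKM untreated (-0.12), Tpm1, a tropomyosin, at 4.34 against 4.78 FPKM (-0.11), and Cald1, caldesmon, at 4.31 against 4.44 FPKM (-0.036). In 1-cell and early 2-cell embryos Tpm1 had 1.06 and 0.27 FPKM and Cald1 0.77 and 0.29 FPKM, so both late groups stood above the earlier ones. After both scalings Tpm1 and Cald1 lay above 0. Tagln, an actin-binding protein of smooth muscle whose gene overlaps Pcsk7, was at 1.83 against 1.43 FPKM (0.22), with 0.043 and 0.13 FPKM earlier. Acta2, smooth muscle actin, was at most 0.074 FPKM in any column.

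Untreated stages were compared to describe when the members appear. Of the 43, 8 were at 1 FPKM or more at all 3 stages (18.6%, against 34.1% of all genes): Anxa2, Vim, Serpine2, Tnfaip6, Gja1, Kitl, Gata4 and S100a6. Another 9 were under 1 FPKM at both earlier stages and reached it at the late 2-cell stage (20.9%, against 11.9% of all genes): Fshr, Amhr2, Timp1, Sparc, Btc, Tagln, Fst, Cald1 and Igfbp5. Has2, Cyp19a1 and Hsd3b1 were at 1 FPKM or more earlier and under it at the late 2-cell stage. Of the 9 that appeared late, 2, Fshr and Igfbp5, were under 1 FPKM with TSA (4.65% of the 43, against 3.46% of all genes). In the other direction Ptgs2 and Cyp19a1 reached 1 FPKM with TSA and not without (4.65%, against 2.22% of all genes). The shares of 4.65% lie close to those of all genes and say nothing particular about the members. Those by stage, 18.6% and 20.9%, lie further from all genes. They are no evidence either, since the members were chosen with earlier results of these data known.

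Between the early and late 2-cell stages, when the embryonic genome is broadly activated, 15 members were at least 2-fold higher at the late stage and 2 at least 2-fold lower. This is 15 of 22 kept members (68.2%), against 47.9% of 12794 genes, and 2 of 22 (9.09%), against 10.9%. With no filter, 15 of 43 members (34.9%) and 25.1% of all genes were higher, and 2 of 43 (4.65%) and 5.73% of all genes were lower. The median difference of the 22 was 1.23, beside 0.92 for all kept genes. Anxa2 had the largest difference (2.87), then Fst (2.36), Tpm1 (2.18), Cald1 (2.08) and Sparc (2.06), and Tpm1 was at 4.78 FPKM in late and 0.27 FPKM in early 2-cell embryos. Kitl (1.07) and Fshr (1.03) lay just beyond 2-fold. The lower genes were Cyp19a1 (-2.28), at 0.50 FPKM in late and 6.26 FPKM in early 2-cell embryos, and Hsd3b1 (-1.69), at 0.28 against 3.11 FPKM. These counts depend on the scale. Median-ratio scaling moved the median of all genes by -0.76 and quantile normalization by -0.87, and 8 and 7 members were then at least 2-fold higher. Of the 12794 genes, 3758 and 3378 were then at least 2-fold higher, in place of 6128. Anxa2 stayed at 1.92 and 2.09 under these, Fst at 1.82 and 1.54, and Kitl was at 0.18 and -0.038. Vim, at -0.48 as deposited, was at -1.30 and -1.60.

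Across the first cleavage the members differed less. Gja1 was at 11.99 FPKM in early 2-cell and 3.29 FPKM in 1-cell embryos (1.5988), and Vim at 6.10 against 1.90 FPKM (1.29). Serpine2 was lower, at 57.9 against 144.3 FPKM (-1.30). These were 2 of 13 kept members higher (15.4%, against 3.72% of 10117 genes) and 1 lower (7.69%, against 7.12%). With no filter, 2 of 43 members (4.65%) and 1.54% of all genes were higher, and 1 of 43 (2.33%) and 2.95% of all genes were lower. Gja1 and Serpine2 stayed beyond 2-fold under the other scalings and pseudocounts, and Vim was at 0.69 with a pseudocount of 5. The median of the 13 was 0.36, beside -0.08 for all genes, but it gives no direction, since it was -0.013 with no filter, -0.33 with at least 5 FPKM and -0.082 after quantile normalization.

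**Figure D4:**
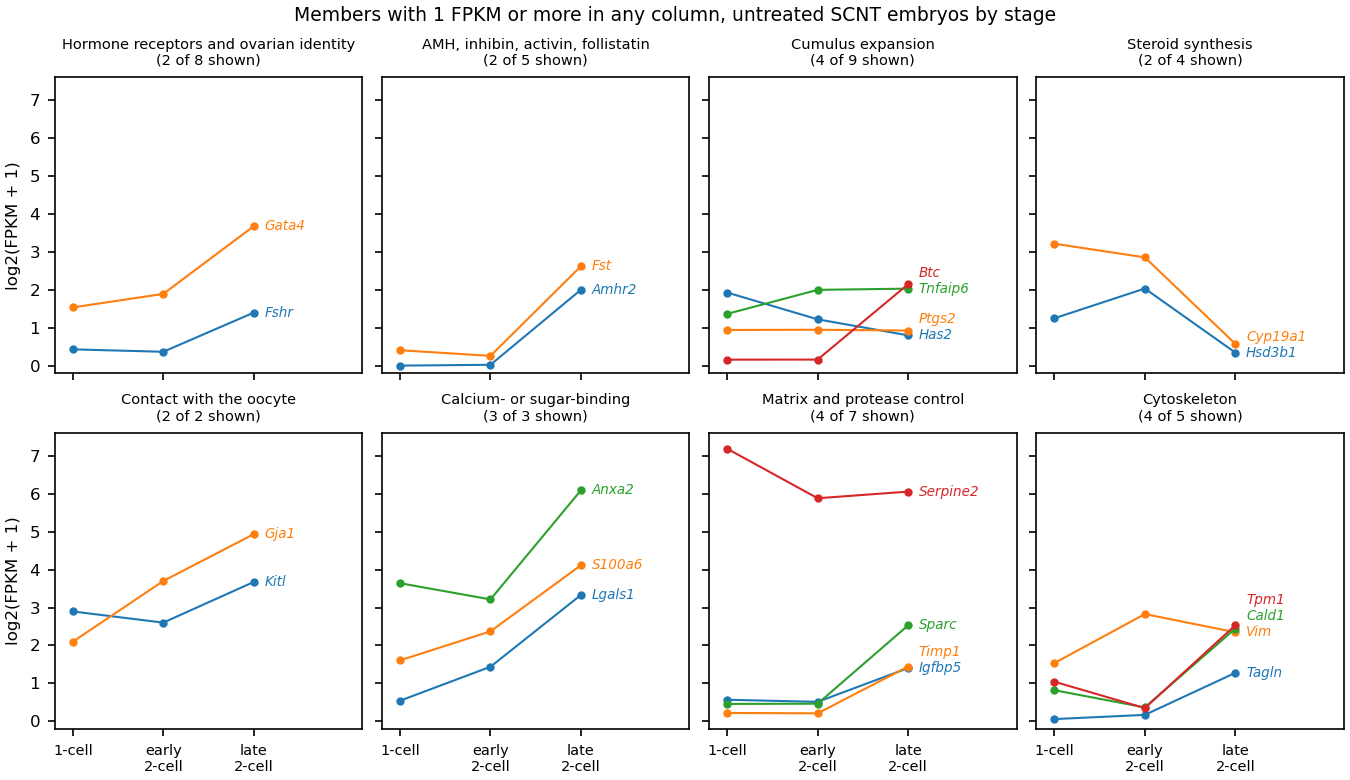
Level of the 23 members with at least 1 FPKM in any of the 4 columns, by role, at the 3 untreated stages (x axis), on the log2(FPKM + 1) scale (y axis). Each line is a gene and each point the authors' value for the group. Most lines turn up at the late 2-cell stage, those of Cyp19a1 and Hsd3b1 turn down, and Serpine2 is highest at the 1-cell stage.

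Other genes of these cells and of other cell types were read in the same columns. Over all 12756 kept genes 4.08% were at least 2-fold lower with TSA and 2.51% at least 2-fold higher. Beside such shares, a count of 0 in lists this short says nothing particular about them. Of 32 further granulosa and cumulus expansion genes, 16 had at least 1 FPKM in either late 2-cell column, and 0 of these were 2-fold apart with TSA (median -0.19, or 0.07 after median-ratio scaling). Ctsl, a lysosomal protease, was at 891.7 with TSA against 997.9 FPKM untreated and Hmmr, a hyaluronan receptor that also serves the mitotic spindle, at 430.9 against 384.5 FPKM, both widely expressed genes. Of 11 further genes of steroid synthesis 9 were kept and 0 were 2-fold apart (median 0.28), with Hsd17b7 at 55.2 against 43.4 FPKM and Srd5a1 at 20.7 against 26.2 FPKM. Oocyte genes had a median of -0.31 over 9, with Oosp1 at 541.4 against 825.7 FPKM and Bmp15 at 237.0 against 392.9 FPKM, and 0 were 2-fold apart. Of 12 primitive and parietal endoderm genes, which include the members Sparc and Col4a1, 7 were kept with a median of -0.33 and 0 were 2-fold apart, and Lamc1 was at 109.1 against 137.8 FPKM and Lamb1 at 9.05 against 12.6 FPKM. Of 12 blood markers 5 were kept and their summed level was 127.1 FPKM with TSA and 86.5 FPKM untreated, against 1.06 and 5.63 FPKM in 1-cell and early 2-cell embryos. Lyz2 was higher at 14.4 against 3.46 FPKM, Cd74 lower at 1.01 against 4.93 FPKM and Cd52 lower at 4.47 against 11.04 FPKM. The globin genes Hba-a1 and Hba-a2 were at 50.0 against 32.9 FPKM and 56.3 against 33.0 FPKM, and whether the authors' counting separated them is not given. The part of these cell types in the members' values was not tested. Genes that all cells use had a median of 0.17, with Rplp0 at 2912 against 2505 FPKM and Ppia at 287.6 against 372.7 FPKM.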

How the data were processed

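RNA of SCNT embryos was measured from poly(A) RNA, and 20 of the 24 RNA libraries in the labels belong to the 4 groups used. The 4 libraries of Dux-injected embryos and 35 libraries of chromatin are not analysed here. The deposited table gives each gene as log2(FPKM + 1), in 1 column per group. The annotation and the way libraries were combined are not given in the sources used. The submitters' processing notes name mm10, HISAT2 2.1.0, StringTie 1.3.4, SAMtools 1.7 and Cufflinks, with no role for each. The 1-cell column is named by 13 h and was matched through the collection time in the protocols. Of 6 columns of values, 2 had no matching RNA library and were left out. FPKM depends on all genes of a column, and depth is unknown, so no interval or detection limit is given. Listed at 0 in all 4 columns were 4424 genes.

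FPKM was recovered as the power of 2 minus 1 (Python 3.11.15, pandas 2.3.3, numpy 2.4.6). Differences are log2(FPKM + 1), first group minus second. Genes at 1 FPKM or more in either column were kept and counted as 2-fold apart at a difference of 1. All shares were computed over the whole table. No test could be fitted to 1 value per group. The calculation was tested on simulated data. The members and gene lists were chosen with earlier results of these data known, the S100, annexin and galectin families after their values were seen. Of genes outside the members, those 2-fold apart with TSA and the 2 most abundant of each list other than these families were named, and Kit, Gapdh, Inhbb and S100a1, Anxa3, Anxa5, Lgals3 and Lgals4 of these families were chosen after their values were seen. Promoter windows are from RefSeq (GRCm38.p6).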

Additional observations from a re-analysis of the deposited data

How the results depend on the processing

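Each column is a single value per group, so leaving out a replicate could not be done. No paired analysis was possible because the columns carry no replicate numbers. Counts and medians below are of members kept by the filter.

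With TSA the median of -0.15 was -0.21 with a pseudocount of 0.1, -0.068 with 5, -0.053 with no filter on low values, -0.27 with at least 5 FPKM in either column, -0.051 after median-ratio scaling and -0.013 after quantile normalization. The number 2-fold higher was 1 with a pseudocount of 0.1 (Cyp19a1) and 1 at a fold of 1.5, in place of 0. The number 2-fold lower, 4, was 5 and 2 with pseudocounts of 0.1 and 5 and 6 at a fold of 1.5. It was 3 with at least 5 FPKM, after median-ratio scaling and after quantile normalization. Over all 12756 kept genes, 520 were lower as deposited and 1074 and 92 with these pseudocounts. After median-ratio scaling 233 were lower, and 298 after quantile normalization. With a pseudocount of 0.1, 614 of all genes were higher, in place of 320.

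At the first cleavage the median of 0.36 was 0.49 and 0.16 with pseudocounts of 0.1 and 5 and 0.26 after median-ratio scaling, and it was negative with no filter (-0.013), with at least 5 FPKM (-0.33) and after quantile normalization (-0.082), so it gives no direction. The number higher was 4 and 1 with pseudocounts of 0.1 and 5 and 6 at a fold of 1.5, in place of 2. The number lower was 3 with a pseudocount of 0.1 and 3 at a fold of 1.5, in place of 1. Over all 10117 kept genes, 713 and 90 were higher with pseudocounts of 0.1 and 5, in place of 376. With a pseudocount of 0.1, 1152 of all genes were lower, in place of 720.

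Between the 2-cell stages the median of 1.23 was 2.11 and 0.70 with pseudocounts of 0.1 and 5, 0.17 with no filter, 1.49 with at least 5 FPKM, 0.72 after median-ratio scaling and 0.68 after quantile normalization. The number higher, 15, was 5 with a pseudocount of 5, 7 with at least 5 FPKM, 8 after median-ratio scaling and 7 after quantile normalization. Over all 12794 kept genes, 6128 were higher as deposited and 3556 with a pseudocount of 5. After median-ratio scaling 3758 were higher, and 3378 after quantile normalization. The number lower, 2, was 1 with a pseudocount of 5 and 1 with at least 5 FPKM. It was 3 after median-ratio scaling, with Vim (-1.30), and 5 after quantile normalization, with Vim (-1.60), Has2 (-1.22) and Tnfaip6 (-1.06). Over all 12794 kept genes, 1399 were lower as deposited and 847 with a pseudocount of 5. After median-ratio scaling 3145 were lower, and 3305 after quantile normalization. Kitl alone of the members 2-fold apart changed sign, to -0.038 after quantile normalization. Over all kept genes, higher values made up 81.4% of those 2-fold apart, against 54.4% after median-ratio scaling and 50.5% after quantile normalization. With TSA these shares were 38.1%, 61.2% and 53.8%, and at the first cleavage 34.3%, 43.5% and 46.6%.

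At a level of 2 FPKM in place of 1, 7 members were listed in 1-cell embryos in place of 12, and the other counts of listed members stayed within 1.5-fold. The cause of these shifts was not tested. With 1 value per group, the spread between embryos limits each comparison to a description.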
